A study of Mus musculus with 13 samples.

Results

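The 2 paralogous microRNA clusters that carry the miR-23, miR-27 and miR-24 families were followed in small RNA libraries from mouse brain. Mature miRNAs were taken as members when their hairpin was mmu-mir-23a, mmu-mir-27a or mmu-mir-24-2 (the mir-23a cluster) or mmu-mir-23b, mmu-mir-27b or mmu-mir-24-1 (the mir-23b cluster). These 6 hairpins of the 903 in the files gave 11 mature miRNAs of the 1384 listed, every arm included. Each hairpin is cut into a 5p and a 3p arm, and the arm loaded into Argonaute guides it to messenger RNAs that pair with its seed (bases 2 to 8). The clusters arose by duplication and carry members with the same or nearly the same sequence, so that either cluster can supply the same family. In other settings the families are known from blood vessels, blood cell differentiation and muscle, and miR-27 from fat cell differentiation.

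The 13 libraries were made from the hippocampus and the prefrontal cortex (PFC) of mice of 2 genotypes. TgR mice are FVB/N-background transgenics that overexpress the human AChE-R, the read-through splice variant of acetylcholinesterase, constitutively from a cytomegalovirus minimal promoter-enhancer, and FVB/N mice are the parent strain. There were 3 TgR and 3 FVB/N hippocampal libraries, and 4 TgR and 3 FVB/N PFC libraries. No treatment was given in the labels, age and sex of these mice were not given in the sources used here, and nothing there says whether 1 mouse gave tissue of both regions. The study's methods give as many mice as libraries in each group. If some mice gave tissue of both regions, the tests between regions treat samples of 1 mouse as separate. The labels name a whole region, so each value sums over all its cell types, and in such tissue fewer cells of a type and less RNA per cell cannot be told apart.

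Each library held 5350259 to 11111883 counts, of which the members took 1.75% to 2.67%. The neuronal markers miR-124-3p, miR-9-5p and miR-128-3p summed to 256494 to 405439 CPM per library, where CPM is a count scaled to a library of fixed size. AChE-R messenger RNA is not measured by small RNA sequencing, so the transgene itself could not be checked here. Markers of the choroid plexus and ependyma stood out in the TgR hippocampus, with summed levels of 9824, 2576 and 8101 CPM in replicates 1, 2 and 3 against 1587 to 2212 CPM in the FVB/N hippocampus and 1015 to 1453 CPM in all PFC libraries.

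The mature sequences below, from RefSeq annotation of mouse assembly GRCm38.p6, are shown because the comparison of the clusters rests on how alike the paralogs are. Letters run 5′ to 3′ and the seed is in capitals. A sequence was matched for 10 of the 11 members, all but miR-23b-3p.
miR-27a-3p: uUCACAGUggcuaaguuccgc
miR-27b-3p: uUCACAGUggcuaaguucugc
miR-24-2-5p: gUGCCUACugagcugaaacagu
miR-24-1-5p: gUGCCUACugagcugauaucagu
miR-24-3p: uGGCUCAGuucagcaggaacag
miR-23a-3p: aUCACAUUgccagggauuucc
miR-27a-5p: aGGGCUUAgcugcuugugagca
miR-27b-5p: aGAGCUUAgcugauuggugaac
miR-23a-5p: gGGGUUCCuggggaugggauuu
miR-23b-5p: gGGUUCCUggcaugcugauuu

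The miR-27a-3p and miR-27b-3p sequences share their seed and their first 18 bases and differ by the single substitution C19U, where the base of miR-27a-3p comes first and positions count from 1 at the 5′ end. The passenger-type arms miR-24-2-5p and miR-24-1-5p share the seed and the first 16 bases and then diverge. The 5p arms of mir-27a and mir-27b differ at 8 of 22 positions, 1 of them in the seed (G3A). The 5p arms of mir-23a and mir-23b have different seeds. Among measured mouse miRNAs with a matched sequence, none outside the members carried the seed of miR-23a-3p, miR-27a-3p, miR-27b-3p or miR-24-3p. Without a sequence for miR-23b-3p, the likeness of the miR-23 3p arms was not compared. The 3p arm of mir-24-1 and mir-24-2 is 1 and the same molecule, miR-24-3p, and its counts were identical at both hairpins in every library, so the cluster it came from cannot be told apart and it was counted once.

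The mir-23a cluster lies on the plus strand of chromosome 8 (GRCm38.p6), with Mir23a at chr8:84208518-84208592, Mir27a at chr8:84208672-84208758 and Mir24-2 at chr8:84208815-84208921. Its 3 hairpins span 404 bases, and GENCODE M21 places Mir24-2 beside an exon of the long non-coding RNA gene Gm26532, which it overlaps by 2 bases on the same strand. The mir-23b cluster lies on the plus strand of chromosome 13, with Mir23b at chr13:63300484-63300557, Mir27b at chr13:63300712-63300784 and Mir24-1 at chr13:63301208-63301275, a span of 792 bases. Its host on the same strand is the protein-coding gene 2010111I01Rik, where Mir23b is intronic and Mir27b and Mir24-1 overlap an exon of at least 1 annotated transcript, and on the opposite strand it lies in an intron of Fancc. Each mir-24 hairpin faces an annotated hairpin of the mir-3074 family on the opposite strand. The antisense product miR-3074-5p had 11 to 40 counts per library.

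**Figure D1:**
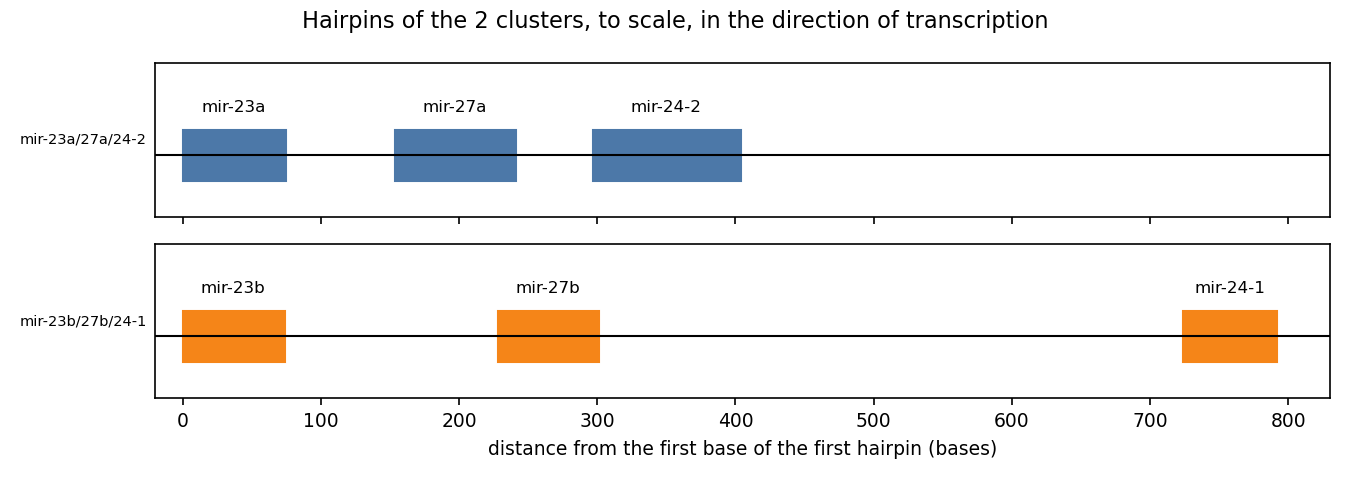
Hairpins of the 2 clusters drawn to scale against distance in bases from the first base of the first hairpin, each box 1 hairpin. Both clusters have the order miR-23, miR-27, miR-24, and the mir-23b cluster is the longer, at 792 against 404 bases.

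Across the 13 libraries, miR-27b-3p and miR-24-3p were the abundant members and the other arms were far lower. Levels are given as CPM after trimmed mean of M-values (TMM) scaling. miR-24-3p ranged from 6951 CPM to 8873 CPM and miR-27b-3p from 7251 CPM to 12737 CPM. By group mean the order was miR-27b-3p, miR-24-3p, miR-27a-3p, miR-23b-3p, miR-23a-3p, miR-24-2-5p, miR-24-1-5p, miR-27b-5p, miR-27a-5p, miR-23b-5p and miR-23a-5p in every group but the FVB/N PFC, where miR-24-3p came first. The libraries of the leading pair overlapped in the FVB/N hippocampus and in both PFC groups, so their order there is not larger than the spread. miR-23b-3p and miR-23a-3p overlapped in both PFC groups but not in the hippocampus. In the TgR PFC miR-23a-3p also overlapped miR-24-2-5p, and miR-27b-5p overlapped miR-27a-5p. All other neighbours were apart in all 4 groups.

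For the miR-23 and miR-27 hairpins almost all reads came from the 3p arm. The 3p arm exceeded the 5p arm by 186 to 324 times for mir-27a, by 424 to 702 times for mir-27b and by 203 to 665 times for mir-23b. The 5p arm of mir-23a was barely seen, with 22 counts in all libraries together against 74510 for its 3p arm. It had 0 counts in 4 libraries and 3 or fewer in 10, and 3 counts, the limit that a count of 0 allows, correspond to 0.270 to 0.561 CPM at these depths. miR-23a-5p therefore did not pass the filter on low counts, and the other 10 members were tested.

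The sum over the 5 arms unique to each cluster was larger for the mir-23b cluster in every library. Most of that sum was miR-27b-3p, with group means of 10324 of 11345 CPM in the FVB/N hippocampus and 8774 of 9741 CPM in the TgR PFC. In the FVB/N hippocampus the mir-23a cluster summed to 2575 to 2866 CPM and the mir-23b cluster to 8696 to 12942 CPM. In the TgR hippocampus the sums were 3131 to 3335 CPM and 13029 to 14001 CPM. In the FVB/N PFC they were 3821 to 3987 CPM and 8104 to 10187 CPM, and in the TgR PFC 3519 to 4591 CPM and 9111 to 10771 CPM. Thus the mir-23a cluster sum was higher in every PFC library than in every hippocampal library. The dominant paralog differed by family, with miR-27b-3p above miR-27a-3p and miR-24-2-5p above miR-24-1-5p in all 13 libraries, and miR-23b-3p above miR-23a-3p in all but 1 PFC library.

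The balance of the clusters was compared between the regions by the ratio of paralogs within each library, which does not depend on the scaling between libraries. All 3 families shifted towards the mir-23b cluster in the hippocampus relative to the PFC, by 1.53-fold for miR-23, 1.68-fold for miR-27 and 2.14-fold for the miR-24 5p arms, and the hippocampal and PFC libraries did not overlap in any of them. In the FVB/N hippocampus miR-23b-3p had 2.28, 1.85 and 1.66 times the counts of miR-23a-3p, and in the TgR hippocampus 1.65, 1.65 and 1.89 times. In the PFC the ratio was 1.17, 1.26 and 1.35 in FVB/N and 1.19, 0.982, 1.11 and 1.20 in TgR libraries. The lowest hippocampal library thus stood above the highest PFC library.

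The ratio of miR-27b-3p to miR-27a-3p was 5.24, 6.01 and 4.36 in the FVB/N hippocampus and 5.21, 5.40 and 5.67 in the TgR hippocampus. It was 3.31, 2.61 and 3.45 in the FVB/N PFC and 3.65, 2.66, 3.09 and 3.54 in the TgR PFC. These ranges were again apart, although the 2 molecules differ by only 1 base near the 3′ end.

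The ratio of miR-24-1-5p to miR-24-2-5p, whose 3′ parts differ more, was 0.609, 0.514 and 0.441 in the FVB/N hippocampus and 0.481, 0.454 and 0.548 in the TgR hippocampus. In the PFC it was 0.229, 0.230 and 0.251 in FVB/N and 0.264, 0.192, 0.223 and 0.273 in TgR libraries. This was the widest shift of the 3 families. The scarce 5p arms gave a miR-27b-5p to miR-27a-5p ratio of 1.59 to 2.77 in the hippocampus and 0.799 to 1.90 in the PFC, which overlapped and was not tested.

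The mean log2 ratio was higher in the hippocampus by 0.62 for miR-23, 0.75 for miR-27 and 1.10 for the miR-24 5p arms. Each difference had p = 0.00143 in a two-sided exact permutation test that exchanged regions within genotype, the smallest p its 700 assignments allow, and an adjusted p of 0.00429 by Benjamini-Hochberg over 9 ratio tests. In the FVB/N libraries alone the differences were 0.60, 0.74 and 1.13, where 3 libraries against 3 cannot go below p = 0.1 in an exact test.

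**Figure D2:**
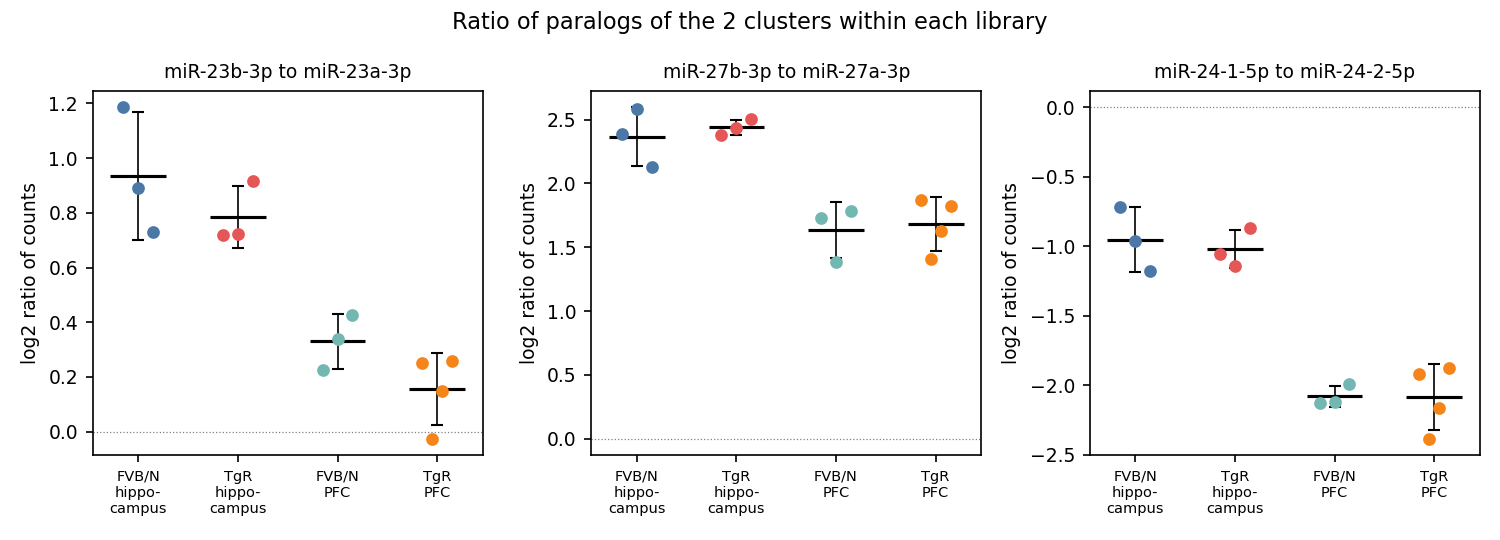
The log2 ratio of counts of the mir-23b cluster paralog to the mir-23a cluster paralog, 1 point per library, by group, with the mean (line) and SD (bar), and a dotted line at equal counts. In each family all hippocampal points lie above all PFC points, and the 2 genotypes of a region overlap.

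No such shift was seen between genotypes. In the hippocampus the TgR minus FVB/N difference of the mean log2 ratio was −0.15 for miR-23, 0.07 for miR-27 and −0.07 for the miR-24 5p arms, and the smallest of these p-values was 0.5 in exact permutation tests that cannot go below 0.1. In the PFC the differences were −0.17, 0.05 and −0.01, with a smallest exact permutation p of 0.171 (at best 0.0286). Libraries of the genotypes overlapped in all 6 of these comparisons. The hippocampal tests could not go under 0.05 even with groups fully apart. They therefore cannot decide whether the ratios differ between genotypes in that region. The PFC tests could go under 0.05 only if the groups did not overlap, so smaller differences there would go undetected.

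Taken 1 miRNA at a time, the 4 tested arms of the mir-23a cluster had lower mean levels in the hippocampus in both genotypes. The libraries of miR-23a-3p overlapped between the regions in TgR mice. With p-values of the edgeR quasi-likelihood test adjusted over all 647 miRNAs tested by Benjamini-Hochberg, 2 of 10 members were called in FVB/N mice, both lower in the hippocampus, where 7.57% of all tested miRNAs were called in either direction and 2.78% as lower. In TgR mice the test again called 2 of 10, 1 lower and 1 higher, against 10.2% of all, 4.79% lower and 5.41% higher. The only member called in both was miR-24-2-5p.

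miR-24-2-5p, the 5p arm that marks the mir-23a cluster, was at 303, 289 and 357 CPM in the FVB/N hippocampus and 562, 509 and 488 CPM in the FVB/N PFC. In TgR mice it was at 366, 322 and 310 CPM in the hippocampus and 503, 582, 563 and 484 CPM in the PFC. Every hippocampal library lay below every PFC library. The log2 fold change of hippocampus against PFC was −0.72 (SE 0.14, adjusted p = 0.00635) in FVB/N and −0.68 (SE 0.13, adjusted p = 0.00379) in TgR mice. It was past the threshold in every alternative for TgR mice, and in FVB/N mice in all but the fit to the FVB/N libraries alone, where the adjusted p was 0.0670.

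Its neighbour miR-27a-3p was at 2151, 1975 and 1795 CPM in the FVB/N hippocampus and 2593, 2783 and 2646 CPM in the FVB/N PFC. The TgR levels were 2316, 2163 and 2247 CPM in the hippocampus and 2675, 3021, 2792 and 2451 CPM in the PFC. The regions did not overlap in either genotype. The log2 difference was −0.44 (SE 0.11, adjusted p = 0.0318) in FVB/N mice and −0.29 (SE 0.10, adjusted p = 0.106) in TgR mice, where it did not pass except with DESeq2 (0.0208) and in the TgR libraries alone (0.0434). The FVB/N call was lost, with little change in the value, in the fit without FVB/N hippocampus replicate 2 (adjusted p = 0.0501), without FVB/N PFC replicate 2 (0.0529), with a replicate block (0.0738), without the filter (0.0824) and in the FVB/N libraries alone (0.198).

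miR-23a-3p, the third 3p arm of that cluster, was at 402, 492 and 414 CPM in the FVB/N hippocampus and 818, 569 and 675 CPM in the FVB/N PFC. In TgR mice the regions overlapped, at 643, 716 and 565 CPM in the hippocampus and 722, 973, 718 and 573 CPM in the PFC. The log2 difference was −0.66 (SE 0.19, adjusted p = 0.0528) in FVB/N and −0.22 (SE 0.18, adjusted p = 0.534) in TgR mice, neither past the threshold. The FVB/N difference passed with DESeq2 (adjusted p = 0.0212), DESeq2 size factors (0.0467), no filter (0.0238), pairs as deposited (0.0433) and without FVB/N PFC replicate 2 (0.0376). The scarce miR-27a-5p, at 6.05 to 10.4 CPM in the hippocampus and 11.3 to 14.3 CPM in the PFC, did not overlap between regions and gave −0.52 and −0.42 without passing (adjusted p = 0.135 and 0.178).

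Of the mir-23b cluster, miR-27b-3p was at 11272, 11864 and 7836 CPM in the FVB/N hippocampus and 8588, 7251 and 9132 CPM in the FVB/N PFC, which overlapped because of hippocampal replicate 3. In TgR mice it was at 12065, 11677 and 12737 CPM in the hippocampus and 9761, 8029, 8638 and 8669 CPM in the PFC, with all hippocampal libraries higher. The log2 difference was 0.47 (SE 0.14, adjusted p = 0.0432) in TgR mice, and 0.31 (SE 0.15, adjusted p = 0.248) in FVB/N mice. The TgR call was lost when any 1 of the 7 TgR libraries was left out (adjusted p = 0.0596 to 0.169), with DESeq2 size factors (0.0624), with DESeq2 itself (0.0613), with hairpin and mature pairs as deposited (0.105) and with a replicate block (0.113).

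miR-24-1-5p was higher in every hippocampal library than in every PFC library, at 184, 149 and 157 CPM against 129, 117 and 123 CPM in FVB/N and at 176, 146 and 170 CPM against 133, 111, 126 and 132 CPM in TgR mice. Its log2 differences of 0.41 (SE 0.14, adjusted p = 0.0971) and 0.38 (SE 0.13, adjusted p = 0.0875) did not pass, except the latter with library size alone (0.0394). miR-23b-3p was at 915, 911 and 685 CPM in the FVB/N hippocampus and 957, 719 and 908 CPM in the FVB/N PFC, with a log2 difference of −0.04 (SE 0.16). In TgR mice it was at 1059, 1180 and 1065 CPM and at 858, 956, 795 and 685 CPM, with a difference of 0.42 (SE 0.15, adjusted p = 0.0988).

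The low arms miR-23b-5p and miR-27b-5p, at 1.39 to 5.21 CPM and 11.4 to 23.7 CPM, differed between the regions by −0.05 and 0.05 in FVB/N and by 0.82 and 0.52 in TgR mice, none past the threshold. The TgR value of miR-23b-5p passed with library size alone (adjusted p = 0.0278) and in the TgR libraries alone (0.0152). miR-24-3p, which both clusters supply, differed by −0.18 (SE 0.10) in FVB/N and −0.03 (SE 0.10) in TgR mice, the TgR value turning positive with scaling by library size alone or without the filter.

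By cluster, all 4 tested arms of the mir-23a cluster had negative values in both genotypes, from −0.72 to −0.44 in FVB/N and from −0.68 to −0.22 in TgR mice. The 5 arms of the mir-23b cluster lay between −0.05 and 0.41 in FVB/N and between 0.38 and 0.82 in TgR mice. The groups of 5 of 10 members did not overlap in FVB/N mice, 1 higher in the hippocampus and 4 lower, where this held for 21% of all tested miRNAs, 12.2% higher and 8.81% lower. In TgR mice it held for 8 of 10, 5 higher and 3 lower, against 27.4% of all, 15% higher and 12.4% lower. Both contrasts came from 1 fit with a shared estimate of the spread.

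**Figure D3:**
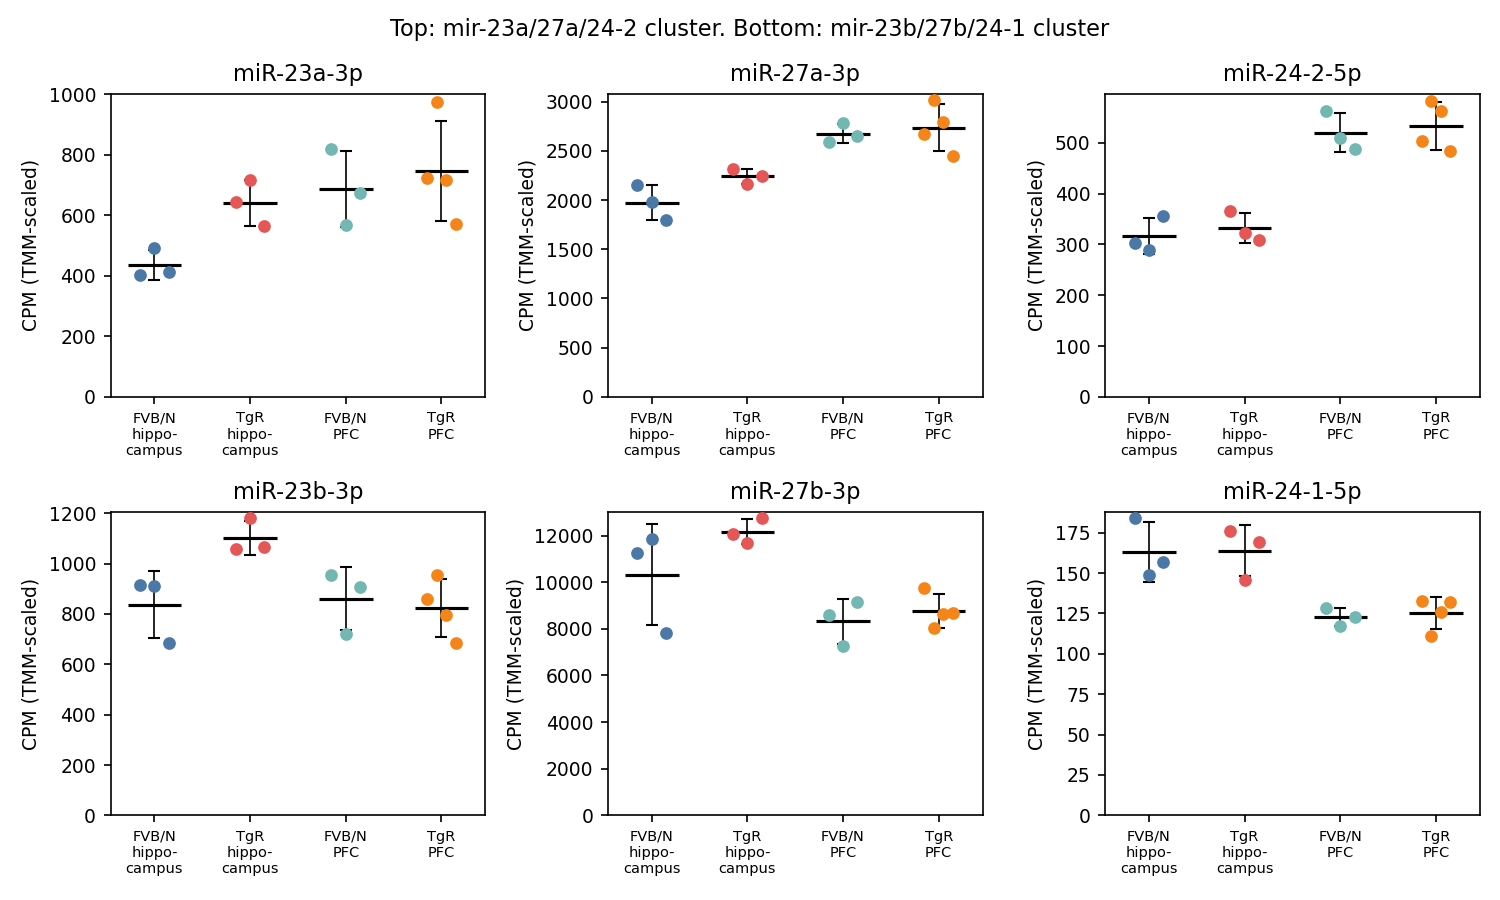
CPM after TMM scaling of the 3p arms of miR-23 and miR-27 and the 5p arms of miR-24, 1 point per library, with group mean (line) and SD (bar), the mir-23a cluster above and the mir-23b cluster below, on axes that start at 0. miR-27a-3p and miR-24-2-5p are lower in every hippocampal library than in every PFC library, and miR-24-1-5p is higher.

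Marker miRNAs of some cell types also differed between the regions, with more of them called in TgR than in FVB/N mice. Over all 647 miRNAs 66 were called in TgR and 49 in FVB/N mice. A test of whether the region difference itself differed by genotype called 1 of 7 choroid plexus and ependyma markers. It called none of the white blood cell, red cell, oligodendrocyte, vascular or neuronal markers. The 4 white blood cell and microglia markers (miR-142a-3p, miR-142a-5p, miR-223-3p and miR-150-5p) summed to 618 to 672 CPM in the FVB/N and 695 to 735 CPM in the TgR hippocampus, against 771 to 973 CPM and 802 to 1080 CPM in the PFC. Of these, 0 of 4 were called in FVB/N and 1 of 4, miR-142a-5p, was lower in the TgR hippocampus, with list medians of −0.42 and −0.57 on the log2 scale against 0.02 and 0.05 over all tested miRNAs. The red cell markers (4, with miR-451a) summed to 1763 to 1858 CPM and 813 to 1092 CPM in the FVB/N and TgR hippocampus and to 1643 to 2476 CPM and 1966 to 3814 CPM in the PFC, with 0 of 4 called in FVB/N and 3 of 4 lower in the TgR hippocampus.

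The oligodendrocyte markers miR-219a-2-3p and miR-338-3p summed to 1422 to 2279 CPM and 2146 to 3509 CPM in the hippocampus and to 587 to 929 CPM and 615 to 743 CPM in the PFC, with 1 of 2 and 2 of 2 higher in the hippocampus. The choroid plexus and ependyma markers had 0 of 7 called between regions in FVB/N mice and 6 of 7 higher in the TgR hippocampus. Of the 6 vascular markers, which include miR-126a and miR-143, 0 were called in either genotype, with medians of −0.21 and −0.17. Of the 3 neuronal markers only miR-128-3p was called, lower in the hippocampus in both genotypes. The list medians were −0.12 in FVB/N and −0.06 in TgR mice. The log2 differences were −0.12 and 0.32 for miR-124-3p, and 0.02 and −0.06 for miR-9-5p. The part of these cell types in the cluster ratios was not tested.

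Between the genotypes in the hippocampus, the low-count miR-23b-5p was the 1 member of 10 that passed the test, higher in TgR mice, against 4.85% of all 619 miRNAs tested and 2.42% called as higher. It was at 3.19, 1.82 and 2.40 CPM in FVB/N and 5.15, 4.99 and 5.21 CPM in TgR mice, which rest on 18 to 59 counts per library. The FVB/N hippocampal libraries also enter the FVB/N contrast of the regions. All TgR libraries were higher, with a log2 fold change of 1.05 (SE 0.25, adjusted p = 0.0455). The call was lost when any 1 of the 6 libraries was left out (adjusted p = 0.0563 to 0.150), with DESeq2 (0.0504), with a replicate block (0.0859) and in a fit to all 13 libraries (0.0561), while the log2 value stayed between 0.85 and 1.26 when a library was left out.

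The 3p arms of both miR-23 hairpins were also higher in every TgR than in every FVB/N hippocampal library without passing. For miR-23a-3p, at 402 to 492 CPM in FVB/N and 565 to 716 CPM in TgR mice, the log2 difference was 0.54 (SE 0.15, adjusted p = 0.0729), and DESeq2 (adjusted p = 0.0392) and the fit without the filter (0.0251) called it. For miR-23b-3p, at 685 to 915 CPM and 1059 to 1180 CPM, it was 0.38 (SE 0.14, adjusted p = 0.181). The groups of 4 of 10 members, these 3 and miR-27a-3p, did not overlap, all higher in TgR mice, against 22.3% of all tested miRNAs in either direction and 11.3% higher.

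The other 7 values were smaller, from −0.01 to 0.22. They were 0.22 (SE 0.15) for miR-27b-3p, 0.17 (SE 0.12) for miR-27a-3p, 0.13 (SE 0.11) for miR-24-3p, 0.21 (SE 0.23) for miR-27a-5p, 0.19 (SE 0.20) for miR-27b-5p, 0.05 (SE 0.15) for miR-24-2-5p and −0.01 (SE 0.15) for miR-24-1-5p, the last 2 changing sign between alternatives. The median over the members was 0.20, against −0.0014 over all tested miRNAs.

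In the same contrast 6 of 7 choroid plexus and ependyma markers were higher in the TgR hippocampus, with a list median of 2.42 on the log2 scale. TgR replicate 2 had the lowest summed marker level of the 3, 2576 CPM, and the highest miR-23a-3p and miR-23b-3p levels, 716 and 1180 CPM. It had the lowest levels of miR-23b-5p (4.99 CPM), miR-27a-3p (2163 CPM), miR-27b-3p (11677 CPM), miR-27a-5p (9.22 CPM), miR-27b-5p (20.2 CPM) and miR-24-1-5p (146 CPM). For miR-24-2-5p and miR-24-3p it lay between the other TgR replicates. In addition 3 of 4 red cell markers were lower, 1 of 2 oligodendrocyte and 2 of 3 skeletal muscle markers were higher, and 0 of 4 white blood cell and 0 of 6 vascular markers were called. Muscle markers summed to 300.2 to 458 CPM in FVB/N and 620.2 to 735 CPM in TgR mice. Their part in the genotype values of the clusters was not tested.

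In the PFC, 0 of 10 members passed between genotypes, against 0.159% of all 628 miRNAs tested. None had an unadjusted p under 0.05 in edgeR, and DESeq2 called 0 as well. The values ran from −0.27 (SE 0.22) for miR-27b-5p to 0.18 (SE 0.31) for miR-23b-5p, every adjusted p was 0.999, and groups overlapped for all 10 members, against 4.78% of all with groups that did not overlap. At these spreads the larger members (miR-27b-3p, miR-24-3p and miR-27a-3p) had standard errors of 0.09 to 0.11 on the log2 scale.

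The genotype effect was not shown to differ between the regions for any member. The interaction test called 0 of 10, against 0.464% of all 647, with 0 at an unadjusted p under 0.05 in edgeR and 0 called by DESeq2. The 3 members of the miR-23 family called or apart in the hippocampus had interaction values of 0.87 (SE 0.41, adjusted p = 0.565) for miR-23b-5p, 0.46 (SE 0.22, adjusted p = 0.579) for miR-23b-3p and 0.44 (SE 0.26, adjusted p = 0.766) for miR-23a-3p. The hippocampal call therefore cannot be described as particular to that region.

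**Figure D4:**
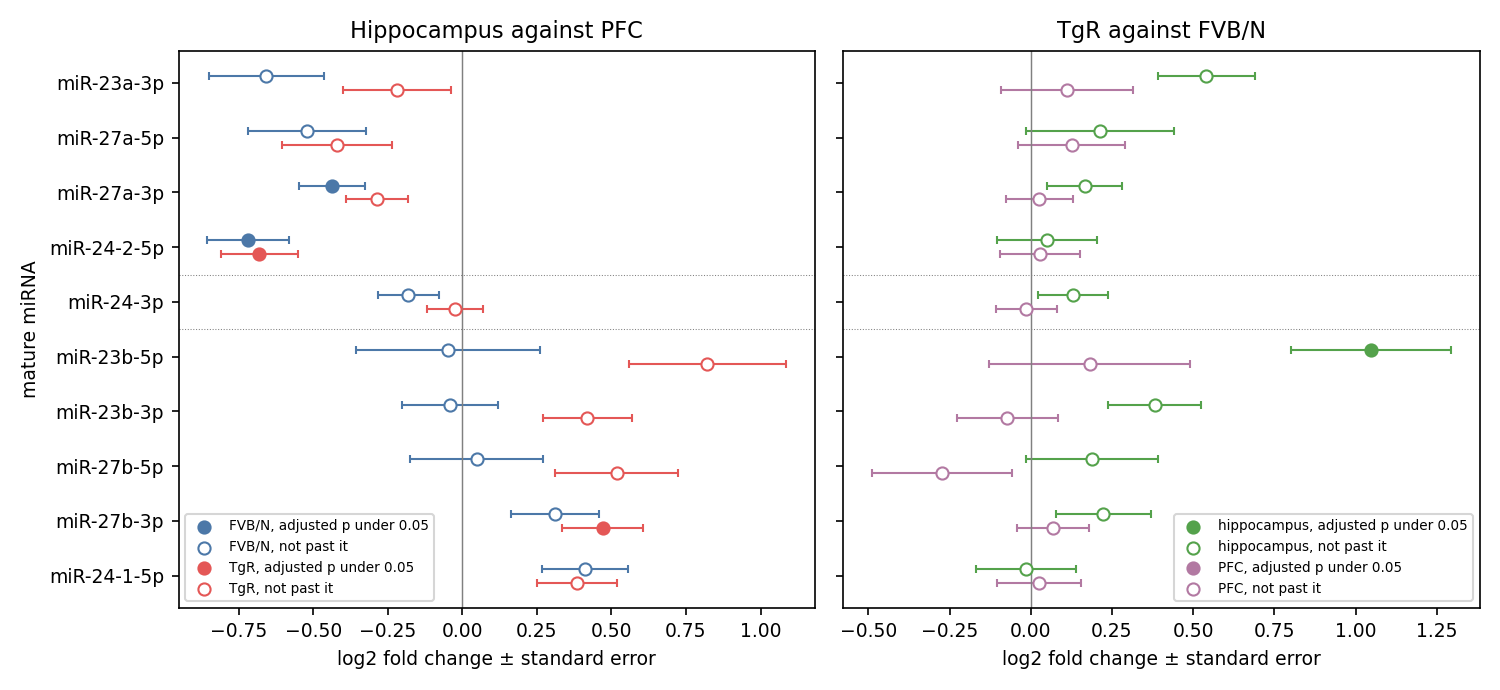
Log2 fold changes with standard errors of the 10 tested members for hippocampus against PFC (left) and TgR against FVB/N (right), filled where the adjusted p was under 0.05, with the mir-23a cluster on top, miR-24-3p between the dotted lines and the mir-23b cluster at the bottom. On the left the mir-23a arms lie below 0 in both genotypes, and on the right the single filled point is miR-23b-5p in the hippocampus.

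The pattern of each cluster over the 13 libraries was compared with those of 211 miRNAs of at least 100 CPM, by the root mean square difference of log2 CPM after each was centred on its own mean. The profile of a cluster was the mean of its 3p arms of miR-23 and miR-27. Closest to the mir-23a cluster were miR-150-5p (0.119), miR-674-5p (0.158) and miR-142a-5p (0.186). Closest to the mir-23b cluster were miR-26b-5p (0.145), miR-140-3p (0.167) and miR-148b-3p (0.168). miR-150-5p and miR-142a-5p, which are abundant in white blood cells, are also in the marker list described above.

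The miR-24 5p arms, which were not part of either profile, sided with their own cluster. miR-24-2-5p ranked 11 of 211 in likeness to the mir-23a cluster and 176 to the mir-23b cluster, whereas miR-24-1-5p ranked 23 for the mir-23b cluster and 165 for the mir-23a cluster. miR-24-3p, to which both hairpins contribute, ranked 16 for the mir-23a and 52 for the mir-23b cluster. These ranks describe 13 libraries that share their region and genotype groups, and are no test.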

How the data were processed

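Small RNA was sequenced from 300 ng of total RNA per library (RNA integrity number 8.6 to 9.3). Per the study's methods, the authors checked reads with FastQC and aligned them to miRBase 21 with miRExpress 2.0 at its default settings. The deposited files hold unnormalised read counts per hairpin and mature miRNA, with no molecular identifiers. Standard errors and p-values reflect counting error together with the spread between the libraries of a group. How reads that match paralogs equally were assigned is not given in the sources used here, so the split of near-identical members is uncertain. Of 71 mature miRNAs with several hairpins, 60 had totals within 5% of each other there, so 1 pair with the highest total was kept per mature miRNA.

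Counts were tested with edgeR 4.0.16 (quasi-likelihood, TMM, default filterByExpr, Benjamini-Hochberg over all miRNAs tested, threshold 0.05) in R 4.3.3, genotype within region and regions over 4 groups of genotype and region. Ratios used log2 of counts plus 0.5. Scripts were tested on simulated data. Replicate counts differed beyond sampling noise in every group (chi-square per degree of freedom 42.5 to 503). Alternatives were DESeq2 1.42.0, its size factors, library size alone, no filter, pairs as deposited, a replicate block, other sets of libraries, and each replicate left out. All members were named, plus the 3 most alike miRNAs per cluster. Members, lists and tests were chosen with earlier results of these data known. Sequences and positions came from RefSeq and GENCODE M21 (GRCm38.p6). One PFC group is numbered differently in labels and file names, and the labels were followed.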

Additional observations from a re-analysis of the deposited data

How the results depend on the processing

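The region differences of all 3 paralog ratios kept their direction in every alternative, at 0.55 to 0.67 for miR-23, 0.68 to 0.81 for miR-27 and 1.04 to 1.15 for the miR-24 5p arms when 1 library was left out (exact permutation p up to 0.005). In FVB/N libraries alone they were 0.60, 0.74 and 1.13 at p = 0.1, the smallest that 3 against 3 allows in an exact test. Ratio differences by genotype stayed below 0 for miR-23. For miR-27 and miR-24 they moved around 0, at −0.0013 and 0.077 with PFC medians. Leaving out 1 library gave −0.049 to 0.18 and −0.18 to 0.050 in the hippocampus, and −0.075 to 0.14 and −0.076 to 0.094 in the PFC.

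Calls among all tested are given in brackets. Members called between genotypes in the hippocampus, 1 as reported (30 of 619), were 2 without the filter (64 of 1295) and 0 with a replicate block (17 of 619). They were 0 with all 13 libraries in 1 fit (30 of 647) and 0 to 0 with 1 library left out (2 to 18 called). Between regions in FVB/N mice the 2 calls (49 of 647) became 1 with a replicate block (45 of 647), 0 in those libraries alone (22 of 615) and 1 to 2 with 1 library left out (24 to 50 called). They rose to 3 with DESeq2 (75 of 647), with DESeq2 size factors (50 of 647) and with pairs as deposited (40 of 751). In TgR mice the 2 (66 of 647) became 1 with DESeq2 size factors (60 of 647), with pairs as deposited (60 of 751) and with a replicate block (53 of 647). They became 4 with library size alone (75 of 647) and in those libraries alone (86 of 633), and 1 with any library left out (29 to 60 called). The PFC labels number animals and the hippocampal labels give a number only, so whether equal numbers mark 1 mouse is not known. Not every same-numbered pair deviated together (correlations of −0.17 to 0.43 across regions, 5 of 6 above 0, and −0.19 to 0.43 across genotypes), and the libraries were not treated as paired. Shared animals or batches were not excluded by this.

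Values near 0 changed sign. For the genotype in the hippocampus, miR-24-1-5p was 0.094 with library size alone, 0.026 without the filter, 0.0049 in 1 fit and −0.085 to 0.067 with 1 library left out, and miR-24-2-5p −0.019 to 0.17. In the PFC miR-23b-5p was −0.12 to 0.41, and 8 of 10 members changed sign in some alternative. Between regions in FVB/N mice, leaving out 1 library gave −0.19 to 0.043 for miR-23b-3p, −0.38 to 0.18 for miR-23b-5p and −0.16 to 0.19 for miR-27b-5p. In TgR mice miR-24-3p was 0.057 with library size alone and 0.011 without the filter. The causes were not tested.

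Calls over all miRNAs in the hippocampal genotype contrast were 30, against 50 with DESeq2, 64 without the filter, 17 with a replicate block and 2 to 18 with 1 library left out. Between regions in FVB/N mice they were 49 (31 higher), against 75 (39 higher) with DESeq2, 42 (23 higher) with library size alone, 22 in those libraries alone and 24 to 50 with 1 library left out. In TgR mice they were 66 (35 higher), against 82 (34 higher) with DESeq2, 75 (53 higher) with library size alone and 29 to 60 with 1 library left out. For the interaction they were 3, against 14 with DESeq2, 16 without the filter and 10 with a replicate block. Scaling by library size alone moved the median of all miRNAs to 0.10 in the hippocampal genotype contrast, 0.13 between regions in TgR mice and 0.15 for the interaction. Depth limits miR-23a-5p and miR-23b-5p most.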
